A study of Homo sapiens with 24 samples.

Results

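HL60 cells were compared 18 days after a single treatment with the DNA methylation inhibitor 5-Aza-CdR with untreated HL60 cells taken on the same day. The comparison holds 4 expression arrays of 24 in the series, the pair labelled Aza and the pair labelled Ctrl, and the spread between replicates was taken from all 8 HL60 arrays. HL60 is an established promyelocytic leukemia cell line bought from ATCC. The treated cells received 0.1 µM 5-Aza-CdR for 24 hours, after which the drug was removed. The 4 remaining HL60 arrays were from cells given 10 µM clorgyline, an inhibitor of monoamine oxidases and of the histone demethylase LSD1, or 5-Aza-CdR followed by clorgyline (the combinatorial treatment). Treatment of T24 (bladder cancer) and HCT116 (colorectal cancer) cells gave the 16 other arrays. The study took this late time point to see if reactivation of genes under the combined drugs would last. Each group had 2 arrays, and no source says whether the 2 came from different cultures, so every p-value here rests on array-to-array spread that may be technical.

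5-Aza-CdR is a cytidine analog that is built into DNA, where it traps DNA methyltransferases, so that newly made DNA loses methylation. HL60 cells are arrested at the promyelocyte stage, the stage of neutrophil development in which the primary (azurophil) granules are filled with myeloperoxidase, serine proteases and defensins. Specific and gelatinase granule proteins, the NADPH oxidase, Fc and adhesion receptors follow later in development. HL60 cells can be driven towards granulocytes, monocytes or eosinophils by different inducers.

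Values are log2 intensities of Illumina HumanHT-12 V4 BeadChips, normalized by the authors. Over the 8 HL60 arrays they ran from 6.91 to 16 with a median of 7.53, and 68.9% of the probes had a mean within 1 of the lowest value, so most probes sat close to background, where a fold change is measured over background. The sorted values of the 8 arrays differed by at most 0.0052, so values are relative within an array and an overall gain or loss of RNA would not show. Replicate arrays correlated across probes at 0.993 to 0.995, and 5-Aza-CdR arrays correlated with control arrays at 0.979 to 0.986. Most markers of the promyelocyte were present. MPO, the myeloperoxidase gene, stood at 15.75 and 15.85 in the control arrays, and PRTN3, CTSG, AZU1 and MS4A3 were above 11 in both. Of the same marker set, ELANE was near the array median there, at 7.28 and 7.57, and LYZ was low, at 8.06 and 7.95. The erythroid genes HBB, ALAS2 and AHSP, the lymphoid genes CD3E and MS4A1 and the epithelial genes EPCAM, CDH1, KRT7 and KRT19 stayed at or below 7.82 in all 4 arrays compared. CD79A (8.75 to 9.03), UPK3A (8.87 to 9.21) and CD3D (8.44 to 9.32) gave values above the array median. In bulk samples, fewer cells of a type and less RNA per cell cannot be told apart.

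A transcript here is a probe, called at an unadjusted limma p under 0.01 and a fold change over 2. Of 47229 transcripts, 200 were called up-regulated (0.423%) and 178 down-regulated (0.377%), from 145 and 114 named genes. With Benjamini-Hochberg adjustment over all probes, 1682 were higher and 1473 lower at an adjusted p under 0.05, and every one of the 200 up-regulated transcripts had an adjusted p of 0.00834 or less. Among the 178 down-regulated transcripts, 125 had an adjusted p under 0.05, and the largest was 0.104. The 2 replicates with 5-Aza-CdR were within 1 of each other for each of the 200 up-regulated transcripts. Of the 178 down-regulated ones, 92 were set mainly by 5-Aza-CdR replicate 2, as described further on. In the account of genes, each gene is represented by its probe with the highest mean over the 8 arrays. Of 20045 genes, 1055 were higher (5.26%) and 943 lower (4.7%) at an adjusted p under 0.05, and the median difference over all genes was 0.00 on the log2 scale. These counts were 550 and 452 without 5-Aza-CdR replicate 2, 889 and 900 without replicate 1, 571 and 411 without control replicate 1 and 719 and 606 without control replicate 2. In the full fit and in each of these 4 fits alike, 426 genes were higher and 278 lower. Gene lists are given below with the number of members that passed, the median difference and the number that passed in all of those fits, called all fits.

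**Figure D1:**
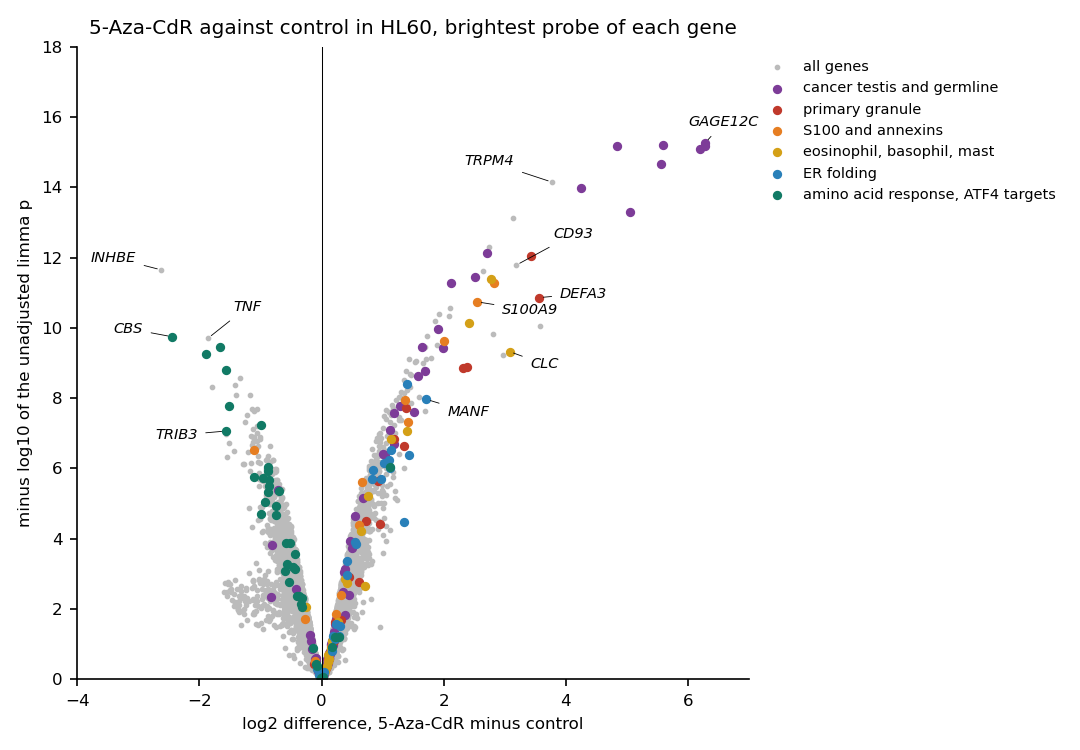
Log2 difference between 5-Aza-CdR and control HL60 cells (x axis) against minus log10 of the unadjusted limma p (y axis) for the brightest probe of 20045 genes, with the members of 6 gene lists in colour. Cancer testis, primary granule, S100 and eosinophil genes reach the right side of the plot, up to 6.28 for GAGE12C, and amino acid response genes make up much of the left side, down to -2.45 for CBS. INHBE lies furthest to the left at -2.62, and the grey points of low significance between -1 and -1.6 are mostly genes whose 5-Aza-CdR replicates differed.

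Primary granule genes were the myeloid group with the highest median. Of 18 measured genes, 12 were higher and none lower at an adjusted p under 0.05 from limma, with a median difference of 0.82. When any of the 4 arrays was left out, 10 still passed. The largest differences were those of the neutrophil defensins, small antimicrobial peptides of the primary granule. DEFA3 was 10.20 and 10.50 in the control arrays and 13.76 and 14.06 in the 5-Aza-CdR arrays. The groups were far apart, with a log2 difference of 3.56 (11.8-fold, SE 0.15, adjusted p = 1.80e-08). DEFA1 was 11.25 and 11.43 against 14.62 and 14.91, a difference of 3.43 (SE 0.11, adjusted p = 1.97e-09), and DEFA1B was 10.28 and 10.71 against 14.02 and 14.10, a difference of 3.57 (SE 0.17, adjusted p = 8.27e-08). The defensin genes are near-identical copies, so their probes may each detect the transcripts of all of them.

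The serine proteases of the same granule rose to different extents. ELANE, which encodes neutrophil elastase, was 7.28 and 7.57 in the control arrays, close to the array median, and 9.87 and 9.73 with 5-Aza-CdR, a difference of 2.38 (5.20-fold, SE 0.14, adjusted p = 8.29e-07). PRTN3, the gene of proteinase 3, went from 12.49 and 12.64 to 13.84 and 13.99, a difference of 1.35 (SE 0.13, adjusted p = 5.21e-05). In neither gene did the groups overlap. AZU1 (azurocidin) and CTSG (cathepsin G) differed by 0.62 and 0.45, with adjusted p of 0.0320 and 0.0253. Their calls depended on single arrays. The adjusted p of AZU1 was 0.0920 to 0.188 without any 1 of the 4 arrays, and that of CTSG was 0.0996 and 0.146 without control replicates 1 and 2 and 0.196 without 5-Aza-CdR replicate 2. MPO was at the top of the scale in all arrays, at 15.75 and 15.85 in the control arrays and 15.82 and 15.89 with 5-Aza-CdR, a difference of 0.06 (SE 0.09, adjusted p = 0.847), and at values this close to the highest of the array, 16, a rise may be hidden.

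LYZ, the lysozyme gene, rose from 8.06 and 7.95 to 10.53 and 10.11, a difference of 2.31 (SE 0.14, adjusted p = 8.51e-07), and its dimmer probe by 1.06. The membrane protein gene MS4A3 (1.18), the granule proteoglycan SRGN (1.39), the defensin DEFA4 (0.96), the bactericidal protein BPI (0.92) and the lysosomal sulfatase ARSB (0.73) also passed. These 5 genes passed without any 1 of the 4 arrays too.

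**Figure D2:**
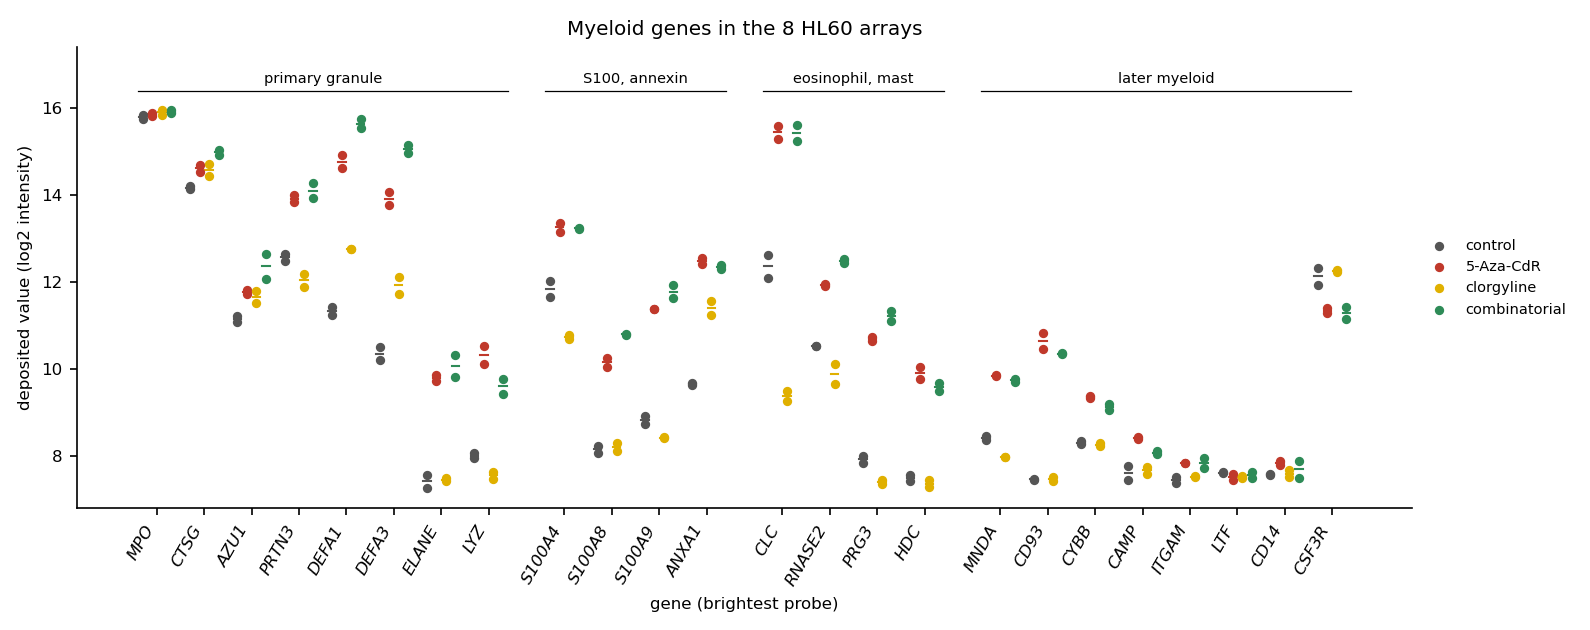
Deposited log2 values (y axis) of 24 myeloid genes (x axis) in the 8 HL60 arrays, 2 per condition, with a short line at the mean of each condition. DEFA3, ELANE, LYZ, ANXA1, CLC, PRG3, HDC and CD93 are far above control in the red 5-Aza-CdR points, MPO, LTF and CD14 are close to control, and CSF3R is below it.

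S100 proteins and annexins, calcium-binding proteins that are abundant in maturing granulocytes and monocytes, were higher in 7 of 16 measured genes and lower in 1, with a median of 0.28, and these 8 passed without any 1 of the 4 arrays. S100A8 and S100A9 form calprotectin, an antimicrobial protein of the neutrophil cytosol. S100A9 rose from 8.74 and 8.92 to 11.38 and 11.38, a difference of 2.55 (5.85-fold, SE 0.11, adjusted p = 2.14e-08). S100A8 rose from 8.24 and 8.06 to 10.04 and 10.26, a difference of 2.0 (4.0-fold, SE 0.10, adjusted p = 1.94e-07). ANXA1, a phospholipid-binding protein that restrains inflammation, rose from 9.63 and 9.67 to 12.41 and 12.56 (difference 2.83, SE 0.11, adjusted p = 8.17e-09). Values of the 2 conditions were well apart in all 3 genes. S100A4 and S100A6 rose by 1.42 and 1.37, S100A11 and ANXA5 by 0.66 and 0.62, and S100P fell by 1.11.

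Genes of eosinophils, basophils and mast cells were higher in 10 of 24 and lower in none, with a median of 0.16, and 7 passed without any 1 of the 4 arrays. CLC, the gene of galectin-10, which forms the Charcot-Leyden crystals of eosinophils, rose from 12.10 and 12.62 to 15.28 and 15.59, a difference of 3.08 (8.44-fold, SE 0.17, adjusted p = 3.44e-07). PRG3, an eosinophil granule proteoglycan, rose from 7.83 and 8.01 to 10.64 and 10.75 (2.77, SE 0.10, adjusted p = 6.65e-09). HDC, which makes histamine from histidine, went from 7.57 and 7.43 to 10.05 and 9.77 (2.41, SE 0.11, adjusted p = 7.30e-08), so both control arrays were at the array median and both 5-Aza-CdR arrays well above it. RNASE2, the eosinophil-derived neurotoxin, rose by 1.40 and ALOX5AP, which serves leukotriene synthesis, by 1.14. CD24 (0.76) and the adenosine receptor ADORA3 (0.65) rose less. The last 3 members that passed, EPX, IL5RA and FCER1A, at 0.71, 0.42 and 0.39, had adjusted p of 0.305, 0.185 and 0.196 without 5-Aza-CdR replicate 2 and 0.263, 0.259 and 0.202 without control replicate 1. Without control replicate 2 EPX was at 0.0830 and FCER1A at 0.0568, and without 5-Aza-CdR replicate 1 IL5RA was at 0.0670.

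Genes of the later stages moved less. Specific and gelatinase granule genes, 25 in number, had a median of 0.03, with 7 higher, none lower and 4 higher in all fits. CHI3L1 (1.21), CAMP, the cathelicidin precursor (0.80), MMP9, gelatinase B (0.71), and the adhesion molecule CEACAM6 (0.60) were those 4. The dimmer probe of CHI3L1, near background, differed by -0.01. CAMP was 7.45 and 7.77 in the control arrays and 8.39 and 8.44 with 5-Aza-CdR, an increase that starts from background. LTF, the lactoferrin gene and the standard marker of specific granules, stood at 7.63 and 7.60 against 7.45 and 7.58 (difference -0.10, SE 0.09, adjusted p = 0.694), so all 4 arrays were at the array median. Of 6 NADPH oxidase subunits, CYBB, the catalytic subunit gp91phox, rose from 8.27 and 8.34 to 9.34 and 9.38 (1.05, SE 0.09, adjusted p = 1.36e-05) and NCF1 by 1.24, and the other 4 did not pass. NCF1 has near-identical pseudogenes whose transcripts its probe may detect.

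Adhesion, Fc and pattern receptors were higher in 13 of 62 genes and lower in none, with a median of 0.10 and 9 higher in all fits, although 5 were lower without 5-Aza-CdR replicate 1. CD93, a C-type lectin-like receptor of myeloid and endothelial cells, was at background in the control arrays, 7.48 and 7.44, and at 10.47 and 10.83 with 5-Aza-CdR, a difference of 3.18 (9.09-fold, SE 0.11, adjusted p = 3.36e-09). MNDA, a nuclear antigen of myeloid cells, rose by 1.44, EVI2B by 1.21 (its dimmer probe, near background, by 0.04) and TYROBP, the adaptor DAP12 of activating receptors, by 1.10. ITGAM, which encodes CD11b, was 7.39 and 7.51 against 7.84 and 7.85, a difference of 0.40 near background (adjusted p = 0.0253), and its adjusted p was between 0.0544 and 0.195 without any 1 of the 4 arrays. CD14, the monocyte lipopolysaccharide co-receptor, was 7.59 and 7.57 against 7.89 and 7.79 (0.26, SE 0.12, adjusted p = 0.285). MHC class II genes, which antigen-presenting monocytes express, passed in none of 17 cases. Over all genes 5.26% were higher and 4.7% lower, shares at which few of 17 genes would pass. Macrophage and lysosome genes were higher in 5 and lower in 1 of 41, with CTSA (0.82) and FUCA1 (0.78) the members that passed in all fits. Among 36 chemoattractant and cytokine receptors, 4 were higher, CXCR4 (0.93), IL18RAP (0.98), GPR183 (0.68) and PTAFR (0.60), and 4 were lower. The median was 0.06, and 4 were higher and 2 lower in all fits. The falling receptors included CSF3R, the receptor of the granulocyte growth factor G-CSF, which went from 12.33 and 11.92 to 11.39 and 11.28 (-0.79, SE 0.13, adjusted p = 0.00298). Its highest 5-Aza-CdR array was below its lowest control array.

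Transcription factors of myeloid and progenitor cells were divided. Of 53 measured, 11 were higher and 6 lower, with a median of -0.03, and 8 and 2 in all fits, with 2 lower without control replicate 1 and 3 without 5-Aza-CdR replicate 1. Of the factors that direct granulocyte development, 4 did not pass the test. SPI1 (PU.1) differed by -0.16 (SE 0.18, adjusted p = 0.770), CEBPA by 0.14 (SE 0.10, adjusted p = 0.602), GFI1 by 0.03 (SE 0.11, adjusted p = 0.948) and CEBPE, which is needed for specific granules, by 0.43 (SE 0.13, adjusted p = 0.0667). CEBPE passed, at 0.0410, when only the 4 arrays were fitted, at 0.0424 without either clorgyline array, and at 0.00570 with all 24 arrays in the fit. MYB, a progenitor factor, was 14.53 and 14.41 against 14.04 and 14.16 (-0.37, adjusted p = 0.0297), and its adjusted p was 0.0589 to 0.215 without any 1 of the 4 arrays. MYC differed by -0.44 (SE 0.13, adjusted p = 0.0681) on its brightest probe, and by -0.89 (SE 0.10, adjusted p = 1.53e-04) on its dimmer one. MYC passed without either combinatorial treatment array (0.0317) and with the replicate number as a block (0.0494). EGR1, an immediate early factor of monocyte development, fell from 13.06 and 13.32 to 11.48 and 11.79, by 1.55 (SE 0.16, adjusted p = 9.05e-05). The 8 factors that rose in all fits were KLF2 and KLF6 (1.01 each), NR4A2 (0.88), KLF4 (0.80), the inhibitors of DNA binding ID2 (0.77), ID1 (0.69) and ID3 (0.57), and IRF8 (0.52). Stem and progenitor markers were higher in 5 of 29 genes and lower in none, with a median of 0.07 and 2 higher in all fits. The stem cell growth factor CLEC11A (1.70) led them, while CD34 (0.03) and KIT (0.07) were near 0.

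The largest rises of the whole comparison belonged to GAGE genes, X-linked cancer testis genes that are expressed in male germ cells and silent in most other tissues. GAGE12C was 7.55 and 7.35 in the control arrays, at the array median, and 13.58 and 13.90 with 5-Aza-CdR, a log2 difference of 6.28 (77.9-fold, SE 0.11, adjusted p = 3.44e-12). GAGE4, GAGE12G, GAGE12J, GAGE12H, GAGE12B, GAGE12F and GAGE2A rose by 4.25 to 6.28, each from 7.17 to 7.73 in the control arrays to 11.42 or more. GAGE7 and GAGE12E, which were not on the list and were picked after their values were seen, rose by 3.14 and 2.97. Because the GAGE copies differ little in sequence, the value of one probe can include neighbours. The windows below, from 250 bases before to 50 bases after the annotated start in the RefSeq table of build GRCh38.p14, are shown because the drug lowers methylation at CpG sites. CpG sites are in capitals. The GAGE12C window, chrX:49531927-49532226 on the plus strand, holds 13 CpG sites and is identical in the windows of GAGE12D, GAGE12E, GAGE12F, GAGE12H, GAGE12J and GAGE2A. The CLC window, chr19:39737980-39738279 on the minus strand, holds 2.
GAGE12C: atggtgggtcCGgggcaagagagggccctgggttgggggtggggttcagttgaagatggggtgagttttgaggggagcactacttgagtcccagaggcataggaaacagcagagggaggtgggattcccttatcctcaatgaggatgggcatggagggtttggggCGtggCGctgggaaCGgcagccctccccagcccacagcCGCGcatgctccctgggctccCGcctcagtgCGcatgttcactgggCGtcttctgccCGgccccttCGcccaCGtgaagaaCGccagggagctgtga
CLC: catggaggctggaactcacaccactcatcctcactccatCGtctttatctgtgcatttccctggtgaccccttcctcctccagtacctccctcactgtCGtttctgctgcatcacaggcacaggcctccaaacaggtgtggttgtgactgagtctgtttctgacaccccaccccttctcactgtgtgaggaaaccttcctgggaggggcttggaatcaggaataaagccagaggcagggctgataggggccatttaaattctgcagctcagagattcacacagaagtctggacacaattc

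Over the 15033 measured genes with such a window, the median number of CpG sites was 22. It was 16 in the 104 windows of genes more than 2-fold higher at an adjusted p under 0.05. In the 67 of genes more than 2-fold lower it was 26. Among risen list members, the median was 9 in 5 windows of primary granule genes and 3 in 9 of eosinophil and mast cell genes. It was 8 in 7 of S100 and annexin genes and 13 in 23 of cancer testis and germline genes. Risen endoplasmic reticulum folding genes went the other way, with 28 in 15 windows, and falling amino acid response genes had 26.5 in 24. Several of the 23 cancer testis and germline windows belong to GAGE copies of nearly the same sequence, with 12 or 13 sites each. Those windows are not separate cases, and they weigh on the median of 13. All these medians are descriptions of genes chosen by their response, and methylation itself was not analysed here. Of 92 cancer testis and germline genes, 30 were higher and 3 lower, with a median of 0.13, and 25 and 1 in all fits. Outside the GAGE group, TKTL1, a transketolase-like gene (2.71), PAGE5 (2.51), VCX (2.12), CTCFL, the testis paralog of the insulator protein CTCF (1.99), the piRNA genes PIWIL4 (1.69) and MAEL (1.65) and the meiotic gene HORMAD1 (1.52) were among the largest rises. Most members, 59 of 92, did not pass. The cation channel gene TRPM4 had the largest rise outside the GAGE genes, going from 8.04 and 8.08 to 11.87 and 11.79 (3.78, SE 0.08, adjusted p = 2.38e-11). LRCH4, a leucine-rich repeat gene, went from 10.03 and 9.75 to 12.83 and 12.55 (2.8) and the class V myosin MYO5C from 7.32 and 7.48 to 10.08 and 10.01 (2.65), both on no list and named after their values were seen.

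Most measured folding genes of the endoplasmic reticulum were higher. The unfolded protein response raises them when folding demand in the endoplasmic reticulum is high, through ATF6 and XBP1, which bind ER stress response elements in their promoters. Of 25 measured genes, 15 were higher and none lower, with a median of 0.55, and 13 in all fits. The other 10 did not pass, with ERP44 (-0.02) and ERO1A (-0.04) among them. MANF, a secreted survival factor retained in the endoplasmic reticulum, rose from 12.85 and 12.68 to 14.46 and 14.51 (1.72, SE 0.13, adjusted p = 4.78e-06). HSPA5, the chaperone BiP, rose from 11.47 and 11.26 to 12.78 and 12.74 (1.39, SE 0.09, adjusted p = 2.01e-06). The conditions did not overlap in either gene. SDF2L1 (1.42), HYOU1 (1.35), PDIA6 (1.14), CRELD2 (1.12), HSP90B1 (1.11), DNAJB11 (1.02), CALR (0.98), PDIA4 (0.84) and DNAJC3 (0.83) followed, while the transcripts of the regulators ATF6 (-0.08) and XBP1 (0.23) did not pass. The promoter windows of HSPA5, chr9:125241294-125241593 on the minus strand, and HSP90B1, chr12:103930160-103930459 on the plus strand, are shown with the ER stress response element in capitals. It was searched as CCAAT, any 9 bases and CCACG on both strands, and its first block is the CCAAT box that NF-Y binds by itself.
HSPA5: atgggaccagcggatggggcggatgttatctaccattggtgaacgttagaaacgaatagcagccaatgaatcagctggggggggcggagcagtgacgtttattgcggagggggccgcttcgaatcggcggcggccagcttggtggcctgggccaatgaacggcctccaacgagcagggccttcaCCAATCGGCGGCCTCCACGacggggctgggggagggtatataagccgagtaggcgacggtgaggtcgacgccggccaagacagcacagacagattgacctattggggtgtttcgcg
HSP90B1: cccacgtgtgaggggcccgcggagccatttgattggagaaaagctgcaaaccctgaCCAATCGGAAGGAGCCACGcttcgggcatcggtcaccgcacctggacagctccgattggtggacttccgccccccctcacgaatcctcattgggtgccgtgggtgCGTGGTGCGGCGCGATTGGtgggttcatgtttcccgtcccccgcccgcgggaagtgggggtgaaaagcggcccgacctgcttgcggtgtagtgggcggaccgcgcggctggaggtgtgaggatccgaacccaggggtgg

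This spacing of the 2 blocks was found in the windows of 25 of 27305 genes (0.0916%), and in 6 of the 15 risen ER genes, HSPA5, HSP90B1, PDIA6, CRELD2, CALR and CANX. CANX, at 0.42, had an adjusted p of 0.0746, 0.108 and 0.184 without 5-Aza-CdR replicate 2, 5-Aza-CdR replicate 1 and control replicate 2. Of the 24 measured ER genes with a window, 8 held it. The list is made of genes of the unfolded protein response and its folding machinery, so an excess over all genes follows largely from its choice. A match is a description of the letters and not evidence of binding. Cytosolic heat shock genes were higher in 10 of 25 and lower in 1, with a median of 0.25 and 7 higher in all fits, among them CACYBP (0.85), HSPH1 (0.84), CHORDC1 (0.66) and HSP90AA1 (0.65). With all 24 arrays in the fit, the adjusted p of HSPH1 was 0.0684.

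The falling genes were led by the amino acid response. When amino acids are scarce or the kinases of the integrated stress response are active, the transcription factor ATF4 raises genes of amino acid synthesis and uptake and the aminoacyl tRNA synthetases. Of 41 measured genes of this response, 27 were lower and 1 higher, with a median of -0.59, and 20 and 1 in all fits. Over all genes 4.7% were lower. CBS, cystathionine beta-synthase of the transsulfuration pathway, was 11.46 and 11.27 in the control arrays and 8.96 and 8.86 with 5-Aza-CdR, a fall of 2.45 on the log2 scale (5.47-fold lower, SE 0.13, adjusted p = 1.55e-07). STC2, a secreted stress glycoprotein, fell from 10.47 and 10.40 to 8.45 and 8.63 (-1.90, SE 0.11, adjusted p = 3.88e-07). DDIT4, an inhibitor of mTORC1 also called REDD1, fell from 12.04 and 12.24 to 10.48 and 10.48 (-1.66, SE 0.09, adjusted p = 2.67e-07). In these genes both 5-Aza-CdR arrays were more than 1.5 below both control arrays.

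TRIB3, a pseudokinase that feeds back on ATF4, went from 14.08 and 13.69 to 12.26 and 12.37 (-1.57, SE 0.14, adjusted p = 2.58e-05). ASNS, asparagine synthetase, went from 14.61 and 14.52 to 13.05 and 12.96 (-1.56, SE 0.10, adjusted p = 9.54e-07), and its dimmer probe fell by 1.36. The replicates of each condition were close and the conditions apart. Members of the list that encode enzymes of serine and one-carbon metabolism and that fell were PSAT1 (-0.96), PSPH (-0.88), PHGDH (-0.87), SHMT2 (-0.87) and MTHFD2 (-0.99). The mitochondrial carboxykinase PCK2 was at -1.52. Among the tRNA synthetases, AARS1 (-1.11), WARS1 (-0.87), GARS1 (-0.85) and SARS1 (-0.75) fell in all fits. Amino acid transport was represented by SLC7A5 at -1.0. The stress regulators ATF5 (-0.92), SESN2 (-0.75) and CHAC1 (-0.69) were lower too. ATF4 itself, whose activity is set largely at translation, differed by -0.07 (adjusted p = 0.810). DDIT3, the factor CHOP, was the 1 member that rose, by 1.12. Of the 41 members, 36 had a difference below 0 and 5 above, and XPOT (0.29), NUPR1 (0.22), SLC6A9 (0.17) and GDF15 (0.02) were above 0 without passing.

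**Figure D3:**
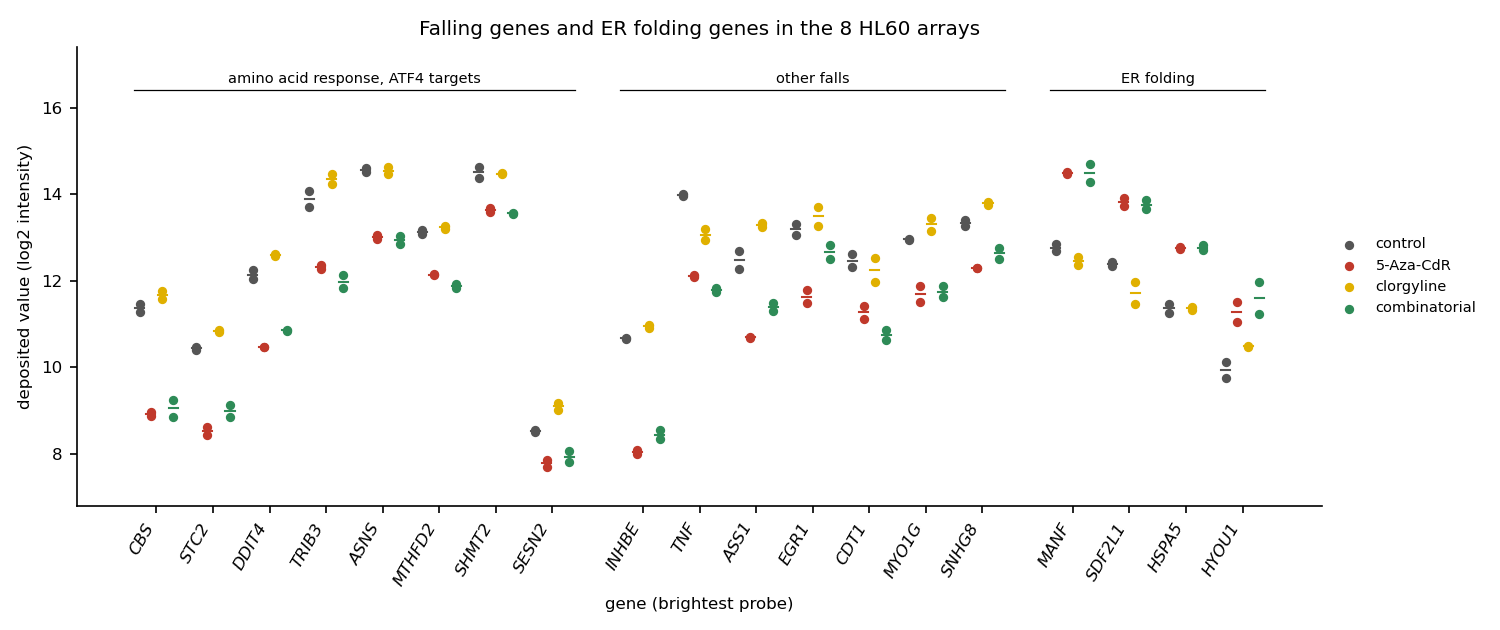
Deposited log2 values (y axis) of falling genes and of 4 ER folding genes (x axis) in the 8 HL60 arrays, 2 per condition, with a short line at the mean of each condition. The red 5-Aza-CdR points and the green combinatorial treatment points lie below control for the falling genes and above it for MANF, SDF2L1, HSPA5 and HYOU1.

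The windows of ASNS, chr7:97872359-97872658 on the minus strand, and AARS1, chr16:70289457-70289756 on the minus strand, are shown because ATF4 with a C/EBP partner binds the amino acid response element. It was searched as TGATGNAA or, on the other strand, TTNCATCA, and matches are in capitals.
ASNS: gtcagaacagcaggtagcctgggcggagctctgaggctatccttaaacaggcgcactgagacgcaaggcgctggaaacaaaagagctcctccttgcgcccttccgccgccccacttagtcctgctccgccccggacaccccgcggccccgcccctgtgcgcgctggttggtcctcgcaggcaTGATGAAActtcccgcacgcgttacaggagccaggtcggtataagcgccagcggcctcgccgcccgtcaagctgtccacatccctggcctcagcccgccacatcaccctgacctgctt
AARS1: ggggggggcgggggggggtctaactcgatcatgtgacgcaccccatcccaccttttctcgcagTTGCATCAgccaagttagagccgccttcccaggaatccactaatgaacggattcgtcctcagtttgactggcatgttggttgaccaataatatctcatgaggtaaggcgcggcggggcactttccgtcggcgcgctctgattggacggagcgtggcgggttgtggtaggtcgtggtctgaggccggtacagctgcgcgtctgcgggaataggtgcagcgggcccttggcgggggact

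The element was found in 7 of 24 falling genes of the response with a window (29.2%), ASNS, AARS1, GARS1, MARS1, CHAC1, CEBPG and SLC3A2. Of the 35 measured genes with a window, 12 held it (34.3%), against 4.46% of 27305 genes. The list is made of ATF4 targets, so an excess over all genes follows from its choice and says nothing about the fall. The share was no higher in falling genes than in the whole list. ATF3, FGF21, SLC1A4, SLC1A5 and SLC7A1 held the element without passing. MARS1, at -0.61, had an adjusted p of 0.129 without 5-Aza-CdR replicate 1 and 0.167 without control replicate 2, and SLC3A2, at -0.44, had 0.0527 without 5-Aza-CdR replicate 1 and 0.0918 without control replicate 1. These windows were read after the response of the genes was known, and elements beyond the window were not searched.

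Other large falls are given here, and whether any of these genes responds to ATF4 was not tested. INHBE, the activin beta E subunit, had the largest fall of all genes, from 10.68 and 10.67 to 8.09 and 8.01 (-2.62, 6.16-fold lower, SE 0.09, adjusted p = 4.38e-09). TNF, the inflammatory cytokine, went from 14 and 13.95 to 12.09 and 12.14 (-1.86, SE 0.10, adjusted p = 1.63e-07). ASS1, argininosuccinate synthase, went from 12.28 and 12.69 to 10.71 and 10.67 (-1.80, SE 0.12, adjusted p = 2.43e-06), and its other probes fell by 2.28 and 0.48. In these genes the 2 arrays of each condition were close and the conditions did not overlap. ZNF768, a zinc finger gene, was 9.95 and 10.01 against 8.69 and 8.13 (-1.57, SE 0.14, adjusted p = 3.02e-05). MFAP4, a microfibril-associated glycoprotein gene on no list and named after its values were seen, was 11.62 and 11.30 against 9.91 and 9.97 (-1.52). CDT1, which licenses replication origins, fell by 1.19, the myosin MYO1G by 1.27, the snoRNA host gene SNHG8 by 1.04 and the polymerase I subunit POLR1E by 0.85. Most genes of replication and mitosis did not pass, with 4 higher and 5 lower of 73 and a median of 0.04. In all fits 0 were higher and 2 lower (CDT1 and E2F2). Over all genes 5.26% were higher and 4.7% lower.

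A second kind of fall rested on a single array. Of the 178 down-regulated transcripts, 92 were more than 1 lower in 5-Aza-CdR replicate 2 than in replicate 1, whereas 0 of the 200 up-regulated transcripts had replicates more than 1 apart. Over all 47229 transcripts, 206 were lower by that much in replicate 2 and 1 was higher. The medians of the 92 were 12.51 and 12.78 in the control arrays, 12.11 and 10.38 in the 5-Aza-CdR arrays, 12.30 and 12.64 with clorgyline and 11.77 and 11.09 with the combinatorial treatment. Combinatorial treatment replicate 2 was below replicate 1 in 90 of the 92, against 40 of the other 86 and 23251 of all 47229 transcripts. Replicate 1 of 5-Aza-CdR was below the control mean by a median of 0.49, so it lay on the same side as replicate 2, at 2.11 below. The other 86 had medians of 11.49 and 11.34 in control and 10.23 and 10.12 with 5-Aza-CdR, so the 2 medians were close, although single transcripts differed by up to 1 between the replicates.

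Genes of the uneven set included 3 of the 12 largest falls. LOC100128288 was 12.77 and 13.16 in the control arrays and 12.30 and 10.43 with 5-Aza-CdR (-1.60, SE 0.44, adjusted p = 0.0495). ABRAXAS1, a subunit of the BRCA1-A complex, was 13.06 and 13.21 against 12.40 and 10.69 (-1.59, SE 0.40, adjusted p = 0.0326), and EID2B was 14.02 and 14.08 against 13.40 and 11.58 (-1.55, SE 0.42, adjusted p = 0.0491). The dimmer probe of EID2B differed by -0.47, and that of ABRAXAS1, near background, by -0.09. ZMAT3, a p53 target, was 14.54 and 14.72 against 13.95 and 12.26 (-1.53, SE 0.38, adjusted p = 0.0315), and its other probes differed by -0.26 and -0.19 without passing. Replicate 1 was within 0.9 of the control arrays and replicate 2 much lower in all 4 genes. Without 5-Aza-CdR replicate 2 their adjusted p was 0.272, 0.153, 0.265 and 0.101, without control replicate 1 it was 0.150, 0.148, 0.205 and 0.139, and without control replicate 2 it was 0.258, 0.168, 0.20 and 0.170. Leaving out either clorgyline array raised it to 0.0660, 0.0512, 0.0674 and 0.0512. Down-regulated transcripts numbered 73 without 5-Aza-CdR replicate 2, 366 without replicate 1 and 116 without control replicate 1. The amino acid response was not of this kind, with 25 members lower without replicate 2 and 23 without replicate 1. No slide or scan batch is given in the sources used here, and the part of such a batch in the uneven set was not tested.

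**Figure D4:**
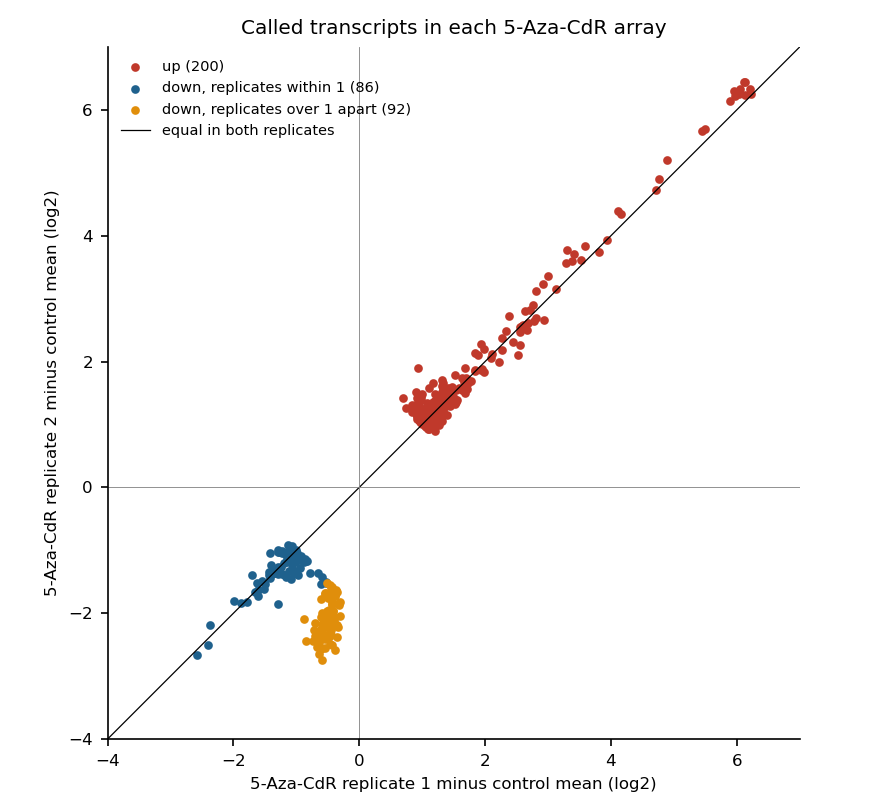
Each called transcript by its value in 5-Aza-CdR replicate 1 (x axis) and replicate 2 (y axis), both minus the control mean in log2 units, with a line where the replicates are equal. The 200 up-regulated and 86 of the down-regulated transcripts follow the line, and the 92 others lie below it, with a median of -0.49 on the x axis and -2.11 on the y axis.

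Genes of metabolism and signalling added smaller groups of rises. Cholesterol synthesis and sterol regulation genes were higher in 10 of 31 and lower in 1, with a median of 0.24 and 8 higher in all fits, among them HMGCS1 (1.27), SQLE (1.06), TM7SF2 (0.88) and NSDHL (0.84). With all 24 arrays in the fit, the adjusted p of HMGCS1 was 0.0877. The sterol regulatory element, searched as TCACNCCAC or GTGGNGTGA, was found in 0 of the 8 risen genes with a window and in 1.39% of all. It was found in only 1 of the 28 measured genes of the list with a window. With a pattern this rare, 0 of 8 does not show that the element is lacking. Hypoxia and glycolysis genes were higher in 11 of 32 and lower in 1 (median 0.28). The number higher was 6 without 5-Aza-CdR replicate 2 and 7 without control replicate 1. The 5 that were higher in all fits were HK1 (1.47), PKM (1.03), ADM (0.83), PGAM1 (0.75) and KDM3A (0.67). Other probes of HK1, near background, differed by 0.00 to 0.07 without passing. Immediate early genes were higher in 11 of 40 and lower in 3, with a median of 0.22 and 10 and 2 in all fits. DUSP1 (1.27), FOSB (1.11) and JUN (1.0) were among the rises and EGR1 was the largest fall. Inflammatory cytokines were higher in 8 of 51 and lower in 3, with a median of 0.08 and 5 and 1 in all fits. CCL2 (0.92) and CCL23 (0.81) went opposite to TNF. The metallothioneins MT1X and MT2A rose by 1.54 and 0.90.

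Other lists had few members that passed in all fits. Interferon-stimulated genes were higher in 7 and lower in 9 of 70, with 4 and 2 in all fits, and MX2 (1.35) and ISG15 (0.78) stood against BST2 (-0.76). Lymphoid genes were higher in 2 of 39, CD3D (0.84) and NKG7 (0.63). Erythroid and megakaryocyte genes were higher in 2 of 35, epithelial genes in 1 of 23 and HOX genes in 0 of 28. Over all genes 5.26% were higher, so the lymphoid, erythroid and epithelial counts were close to that share. Histone genes were higher in 6 of 57, and p53 targets and CDK inhibitors were higher in 4 and lower in 4 of 31, with 0 higher in all fits in either list. The imprinted noncoding RNA H19 was at background in the control arrays, 7.38 and 7.39, and rose to 10.19 and 10.08 (2.75, SE 0.09, adjusted p = 1.19e-09). Among 31 genes of DNA methylation and of the uptake and metabolism of the drug, DNMT3L, a methyltransferase-like cofactor of germ cells, rose by 0.97 in all fits. The maintenance methyltransferase DNMT1 differed by -0.01 (adjusted p = 0.993) and the activating kinase DCK by -0.00.

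**Figure D5:**
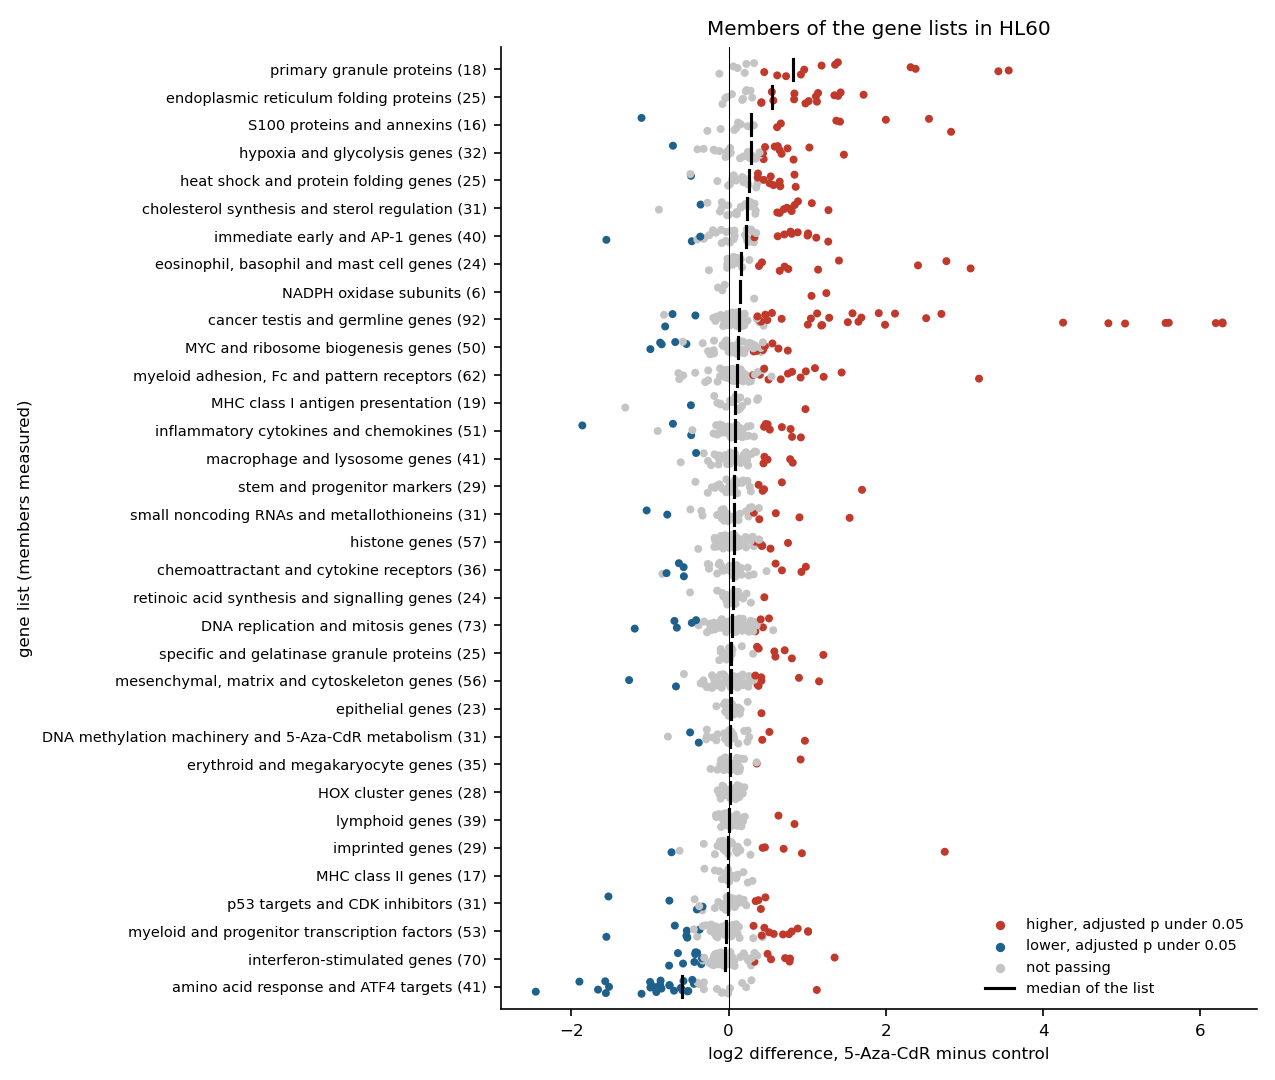
Log2 difference between 5-Aza-CdR and control (x axis) for the measured members of 34 gene lists (y axis, number measured in brackets), ordered by the list median, which is the black bar. Red and blue points passed an adjusted p of 0.05, and grey points did not. Primary granule genes have the highest median, 0.82, and amino acid response genes the lowest, -0.59, while the median of all genes is 0.00.

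The same genes are given side by side for the other HL60 treatments, which were compared with the same control arrays. Clorgyline alone raised DEFA1, DEFA3 and DEFA1B by 1.41, 1.58 and 1.37 and ANXA1 by 1.75. CLC went the other way, at -2.97 with clorgyline, while the combinatorial treatment gave 3.07, like 5-Aza-CdR alone. The amino acid response genes CBS, STC2 and DDIT4 were at 0.30, 0.40 and 0.46 with clorgyline and at -2.31, -1.45 and -1.29 with the combinatorial treatment. GAGE12C was at -0.02 and 6.31. The direct contrast of the combinatorial treatment with 5-Aza-CdR alone passed for the defensins, with a further 1.14 for DEFA3 (SE 0.15, adjusted p = 0.00418), 0.87 for DEFA1 and 1.22 for DEFA1B, and for S100A8 (0.64, adjusted p = 0.0112), and LYZ was lower by 0.72 (adjusted p = 0.0239). It also passed for the eosinophil genes PRG3 (0.52, adjusted p = 0.0238) and RNASE2 (0.56, adjusted p = 0.0367), and for ASS1 (0.70, adjusted p = 0.0150), EGR1 (1.03, adjusted p = 0.00870) and INHBE (0.39, adjusted p = 0.0493), which had fallen less with the combinatorial treatment. It did not pass for ELANE (0.27, SE 0.14, adjusted p = 0.492), CLC (-0.01, SE 0.17, adjusted p = 0.994) or ASNS (-0.06, SE 0.10, adjusted p = 0.895). In T24 cells, given 1 µM for the same time and normalized separately, 5-Aza-CdR minus control was 4.16 for GAGE12C and 4.22 for H19, and it was -0.02 for DEFA3, 0.00 for S100A8, 0.04 for CLC, -0.00 for CD93, 0.07 for CBS, 0.10 for HSPA5 and -0.75 for ASNS. The T24 control means of DEFA3, S100A8, CLC, CD93 and CBS were 7.99 to 8.10, close to those of MPO (8.03) and HBB (8.14). These genes were thus low in T24 cells, where a fall could hardly be measured. GAGE12C rose in T24 cells from a similar level, 8.07. The 2 cell lines received different doses, and the difference between them was not tested.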

How the data were processed

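Expression was measured in 24 samples on Illumina HumanHT-12 V4 BeadChips, and 8 of them, 2 for each of 4 conditions of HL60 cells, entered the fit. Deposited values are log2 intensities to which the authors had applied Robust Spline Normalization in lumi, version 2.8.0 for HL60 and 2.6.0 for T24 per the labels. Background correction and probe filtering are not given in the sources used here. Depth does not apply to arrays, and the number of arrays limits the precision.

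Group means were fitted to each probe with limma 3.58.1 (lmFit and eBayes) in R 4.3.3, with 4 residual degrees of freedom, and 5-Aza-CdR was compared with control. The call limits, p below 0.01 without adjustment together with more than a 2-fold change, follow the methods of the study, which do not mention an adjustment. Benjamini-Hochberg adjustment ran over 47229 probes, 2 having been left out for missing values. Genes come from the platform annotation updated through Entrez identifiers, by which 30112 probes had 1 symbol, 8 several and 17109 none. A gene is its probe with the highest mean over the 8 arrays. Of 63 other probes of named genes, 29 passed in the same direction as the brightest one, 30 did not pass where it did, and 1, of CD44, passed in the opposite direction.

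Members were found by the array titles. The comparison, the 34 gene lists and the tests were chosen with earlier results of these data known. Named genes are the 12 largest rises and 12 largest falls at an adjusted p under 0.05, from every list the passing members with the largest differences, at most 4, and 20 myeloid genes whatever their result. Further list members are named to show what a list holds. Promoter windows were matched by symbol in a RefSeq table of GRCh38.p14, for 15033 of 20045 genes. Alternatives were other thresholds, dim probes left out, quantile normalization, a common median, other samples in the fit, a single probe for each gene, a block by replicate number, robust variance estimation with a trend, and fits without each array. Counts of list members without single arrays, the split by replicate gap and the window searches were added after seeing the data. The procedure was tested on simulated data. Same-numbered replicates were not paired, since their deviations correlated at -0.07 to 0.18.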

Additional observations from a re-analysis of the deposited data

Results flagged for a closer look

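Among the 24 genes of largest change, 2 had 5-Aza-CdR arrays on opposite sides of the control arrays in HL60 and T24 cells, without overlap in either line. DEFA3 was -0.0229 in T24 cells (limma adjusted p = 0.894) against 3.56 in HL60 cells. CBS was 0.0719 in T24 cells (limma adjusted p = 0.684) against -2.45 in HL60 cells. Neither T24 value passed the test. In T24 control cells both genes were about as low as MPO and HBB, a level at which a fall could hardly be measured. With so few arrays in each group, such a separation can also arise from array-to-array spread. No opposite response of the lines can be read from these values, and the difference between the lines was not tested. The cell lines received different doses and were normalized separately.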

How the results depend on the processing

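Up-regulated transcripts numbered 138 to 239 under every alternative, the lowest with 1 probe per gene, and the other counts varied more. Requiring an adjusted p under 0.01 left 83 down-regulated transcripts of 178, a robust spread with a trend left 82 and 1 probe per gene left 104, with 1095 higher at an adjusted p under 0.05. With all 24 arrays in the fit, 3302 were higher and 3793 lower. Leaving out 1 array at a time gave 181 to 239 up-regulated, 73 to 366 down-regulated, 885 to 1712 higher and 633 to 1542 lower. Without control replicate 1 the counts were 116 down-regulated, 885 higher and 633 lower, without control replicate 2 they included 883 lower, without 5-Aza-CdR replicate 1 they included 366 down-regulated, and without 5-Aza-CdR replicate 2 they were 73 down-regulated, 896 higher and 698 lower. With the replicate number as a block, 200 were up-regulated, 190 down-regulated, 1919 higher and 1777 lower, and of the 139 named genes it changed the call of MYC only. No named gene changed direction past the threshold under any of these. With all 24 arrays in the fit, 9 named genes no longer passed, HMGCS1 and HSPH1 among them (adjusted p 0.0877 and 0.0684), and CEBPE passed (0.00570). The cause of these shifts was not tested. Most probes lie close to background, which limits what could be measured for dim genes.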
